A study of Mus musculus with 16 samples.

Results

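The average effect of testosterone on the mouse ovary was taken over both cohorts of the study, as all 8 libraries from testosterone-injected mice against all 8 control libraries with the cohort as a block. All 16 of the 16 libraries entered this comparison, and every gene in the table with enough counts was tested. Each library came from 1 ovary of 1 female C57BL/6NHsd mouse, an inbred strain, and poly(A) RNA was sequenced. Mice started weekly injections under the skin at 9 to 10 weeks of age, with 0.9 mg testosterone enanthate (a slowly released ester) or with the sesame oil vehicle.

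In the younger cohort, the On T mice (n = 4) were collected at 16 weeks of age after 6 weeks of injections that were still going on, beside 4 oil-injected controls. In the older cohort, the Post T mice (n = 4) had received the same 6 weeks of injections, which were then stopped. They were collected at 24 to 28 weeks of age, 4 cycles after cycling had resumed, beside 4 oil-injected controls. All mice were in diestrus, the stage of the mouse cycle between ovulations. The cohorts differ both in age and in whether testosterone was still given, and these cannot be told apart. An average can also rest on 1 cohort, so each cohort's own log2 fold change is given beside many of the averages. Where it is not given, the average alone does not show that both cohorts moved.

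Testosterone is a steroid hormone that theca cells of the ovary also make, and given from outside it lowers the pituitary drive to ovulation. After ovulation the emptied follicle turns into a corpus luteum, which makes progesterone from cholesterol and is taken down by prostaglandin signalling and macrophages if no pregnancy follows. In bulk tissue, fewer cells of a type and less RNA per cell cannot be told apart, and this holds for each result on a cell type below.

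The libraries held 26598055 to 52659637 expected counts, and 18833 of 55426 genes were tested. On the first principal component (33.9% of the variance) the 8 testosterone libraries lay between 9.65 and 56.2 and the 8 controls between -54.0 and -18.8. Genes of the ovary were present in every library: Gdf9, made by oocytes, had at least 36.1 CPM (counts scaled to library size and composition), Foxl2 of granulosa cells at least 175 and Cyp17a1 of theca cells at least 15.9. On T library 2 and library 1 of the Post T controls stood apart on lower components, and surface epithelium markers were low in On T libraries 2 and 4 (mean log2 CPM 2.08 and 2.71, against 3.71 to 4.52 in the other 14). Markers of fat, which can be dissected with the ovary, varied between libraries in every group (mean log2 CPM 0.365 to 3.52 in controls and 0.234 to 3.30 with testosterone).

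Testosterone changed 3026 genes on average (16.1% of genes tested) in edgeR's quasi-likelihood fit, at a Benjamini-Hochberg adjusted p of 0.05. Of these, 1610 were higher (8.55% of genes tested) and 1416 lower (7.52%), and 395 rises and 455 falls exceeded 2-fold. The median log2 fold change of all genes tested was -0.01. Without On T library 2 and library 1 of the Post T controls, 3033 genes were called, 2517 of them among the 3026. In 570 genes (3.03% of genes tested) no testosterone library overlapped any control library, with testosterone lower in 369 (1.96%) and higher in 201 (1.07%). Within both cohorts taken one at a time, 906 genes (4.81%) had no overlap in the same direction. Counts of calls and of genes without overlap in the gene lists below are to be read beside these shares of all genes tested. The lists were chosen with earlier results of these data known, so their counts and means are descriptions and not independent support.

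Taken alone, the On T contrast called 1746 genes (9.27% of genes tested), 799 higher (4.24%) and 947 lower (5.03%). The Post T contrast called 2315 (12.3%), 1410 higher (7.49%) and 905 lower (4.81%). Both contrasts called 766 genes in the same direction (4.07% of genes tested), 434 lower (2.3%) and 332 higher (1.76%). They are 43.9% of the On T calls and 33.1% of the Post T calls, and the 2 contrasts share no library. All 766 were also called on average, where they made up 25.3% of the 3026 genes. A further 977 genes called on average passed in the Post T cohort alone and 595 in the On T cohort alone.

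Another 688 genes passed on average but in neither cohort, 320 higher and 368 lower. Their effects were small: the median size was 0.39 on the log2 scale, and 49 of them passed 2-fold. Small effects are favoured by the selection itself, since these genes are those that passed in neither cohort. Among genes called in both cohorts the median was -1.34 for the falls and 1.00 for the rises.

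The effects of the cohorts differed in 612 genes by the test of the difference (3.25% of genes tested), and the Post T effect was the higher in 551 of them (2.93%) and the lower in 61 (0.324%). Falls were shared more evenly than rises. The difference was called in 26 of the 1416 genes lower on average, against 278 of the 1610 higher ones, of which 212 had passed in the Post T cohort alone.

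**Figure D1:**
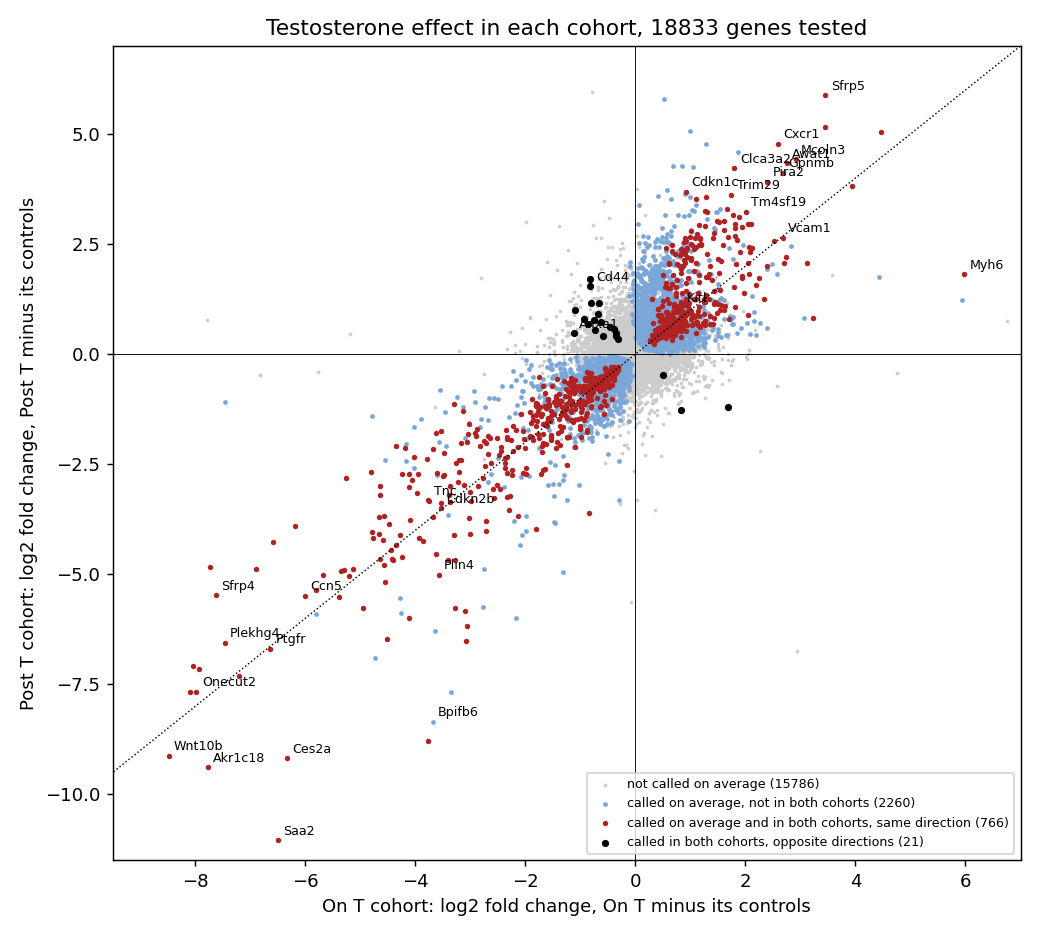
Each point is 1 of the genes tested, placed by its log2 fold change in the On T cohort (horizontal axis) and in the Post T cohort (vertical axis), each against its own 4 controls; the dotted line marks equal effects. The 434 shared falls reach further from 0 than the 332 shared rises, and the labelled rises lie mostly above the dotted line while the labelled falls lie on both sides of it.

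**Figure D2:**
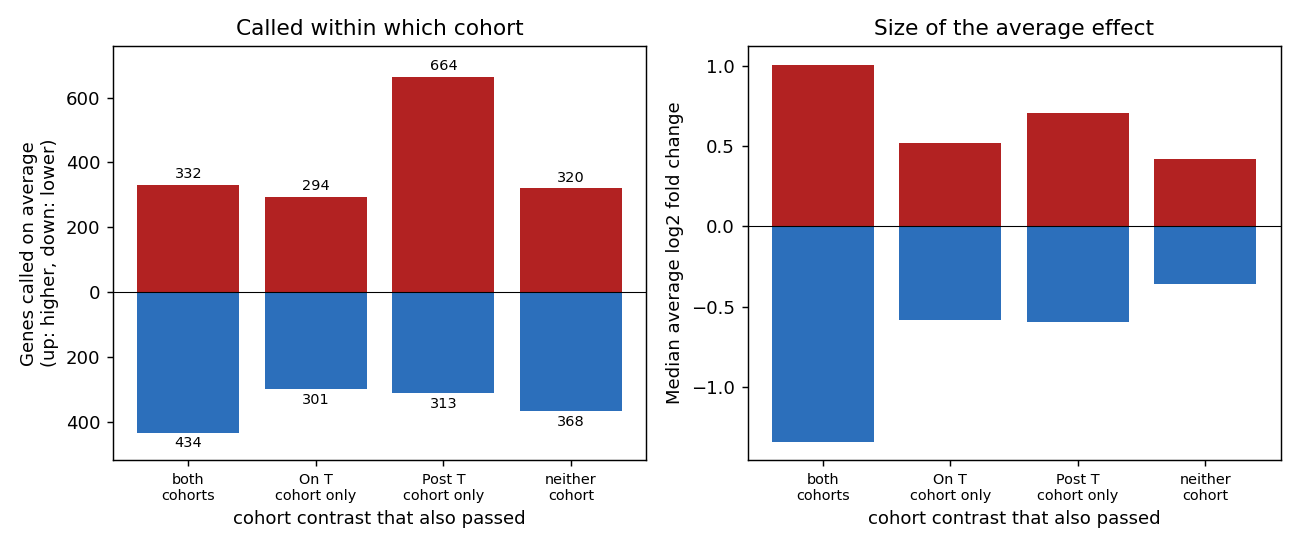
The left panel counts the genes called on average, higher upwards and lower downwards, by the cohort contrast that called them too, and the right panel gives the median average log2 fold change of each bar. The 664 rises that passed in the Post T cohort alone are the largest class, and the 688 genes that passed in neither cohort have the smallest medians, which their selection favours.

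Genes of the corpus luteum were among the largest shared falls. Akr1c18 encodes the hydroxysteroid dehydrogenase that inactivates progesterone. It was at 0.113 to 1.04 CPM with testosterone (median 0.365, n = 8) and at 105 to 189 CPM in controls (median 137, n = 8). The average log2 fold change was -8.39 (SE 0.26, edgeR adjusted p = 4.15e-13), with -7.78 in the On T cohort and -9.39 in the Post T cohort. No testosterone library came near the lowest control. Ptgfr, the receptor for the prostaglandin that ends luteal function, was at 0.688 to 6.71 CPM (median 3.87) against 191 to 507 (median 365). It fell by 6.67 (SE 0.36, edgeR adjusted p = 1.35e-09), with -6.64 in the On T cohort and -6.69 in the Post T cohort.

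Onecut2, a homeobox transcription factor placed in the luteal list here, was at 0.0246 to 0.136 CPM (median 0.0761) against 14.2 to 21.2 (median 16.6), and fell by 7.82 (SE 0.19, edgeR adjusted p = 2.99e-14). It had the smallest p of all genes tested, and its cohort values were -7.98 and -7.67. Idh1, an enzyme that makes NADPH, fell by 1.42 (SE 0.15; -1.48 and -1.36). Prlr, the prolactin receptor through which rodent corpora lutea are kept, fell by 1.10 (SE 0.17; -1.21 and -0.98), with testosterone libraries at 186 to 398 CPM and controls at 321 to 812, which overlapped.

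Of the 20 luteal markers tested, 12 fell and 2 rose on average (7.52% and 8.55% of all genes tested), with a median log2 fold change of -1.21. In 6 of them no testosterone library overlapped a control library, and 9 fell in both cohorts. The luteal list, like the others, was chosen with earlier results known, so these counts only describe its members. The mean log2 CPM of the list was 5.26 to 6.43 in the testosterone libraries and 7.60 to 8.74 in the controls, without overlap. The 2 that rose were Cd9, a tetraspanin (0.65, SE 0.12), and Apoe, a lipid carrier that macrophages also make (1.06, SE 0.17). A difference of the cohorts was called in 1 of the 20, Cd9 (0.28 in the On T cohort and 1.02 in the Post T cohort).

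The steps from cholesterol to progesterone fell less evenly. Of 25 genes of steroid hormone synthesis tested, 6 fell and 1 rose, with a median of -0.14, and 4 of the 6 are luteal markers too. The rise, Srd5a3, was not called without library 4 of the Post T controls. Star, which brings cholesterol into mitochondria, was at 19.4 to 404 CPM (median 152) against 315 to 2630 (median 576). It fell by 2.53 (SE 0.41, edgeR adjusted p = 0.000341), with -3.06 and -2.01 in the cohorts, although the groups overlapped. Fdxr, which passes electrons to the mitochondrial steroid enzymes, was at 196 to 348 CPM against 358 to 624, without overlap, and fell by 0.66 (SE 0.10; -0.76 and -0.55). Cyp17a1, the androgen-making enzyme of theca cells, ranged from 15.9 to 1096 CPM with testosterone and from 84.1 to 510 in controls (average log2 fold change 0.82, SE 0.72, edgeR adjusted p = 0.517). Its value was -0.14 in the On T cohort and 1.79 in the Post T cohort, and neither passed.

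Cholesterol-making and cholesterol-handling genes went opposite ways. Of 24 genes of cholesterol synthesis tested, 9 fell and 1 rose on average, with a median of -0.70. Most falls rested on the Post T cohort, where 14 fell and 1 rose (median -1.10). In the On T cohort 1 fell (median -0.34). Hsd17b7, which works both in cholesterol synthesis and on estrogens, was at 29.4 to 59.7 CPM against 45.0 to 1280. It fell by 3.37 (SE 0.60, edgeR adjusted p = 0.000778) and was the only member called in both cohorts. The other falls on average included Mvd, Fdps, Dhcr7, Hmgcs1, Cyp51, Tm7sf2 and Ebp, at -1.29 to -0.50. Fdps (-0.81 and -1.68) and Hmgcs1 (-0.74 and -1.58) passed in the Post T cohort and not in the On T cohort. The difference of the cohorts was called by edgeR in none of the 24, and 2 had an unadjusted p under 0.05. Controls varied widely, and the list's mean log2 CPM was 7.76 in library 1 of the Post T controls against 5.83 to 7.13 in the other 7 controls. With that library and On T library 2 left out 5 members fell, and without Post T library 2 also 5.

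Of 24 genes of cholesterol uptake, storage and efflux, 12 rose and 2 fell on average, with a median of 0.33. In the On T cohort 2 rose and 1 fell (median 0.15), and in the Post T cohort 12 rose and 1 fell (median 0.51). Fabp5, a fatty acid carrier, was at 124 to 650 CPM (median 308) against 57.0 to 106 (median 81.2), without overlap. It rose by 1.75 (SE 0.24, edgeR adjusted p = 8.31e-05), but more in the Post T cohort (2.57) than in the On T cohort (0.92, difference edgeR adjusted p = 0.00085). A difference of the cohorts was called in 6 of the 24. Plin4, a lipid droplet coat protein best known from fat cells, went the other way, at 5.80 to 20.8 CPM (median 9.42) against 51.1 to 522 (median 173). It fell by 4.29 (SE 0.48, edgeR adjusted p = 9.09e-06), with -3.58 and -5.01 in the cohorts. Adipoq and Plin1, defining markers of fat, had average log2 fold changes of -1.09 (SE 1.14) and 0.30 (SE 0.39) and did not pass (edgeR adjusted p = 0.609 and 0.694). Of the 12 fat cell genes tested, 2 rose, Lpl (0.87, SE 0.17) and Fabp4 (1.55, SE 0.44), which other cells also make, Plin4 fell, and the list's median was -0.67. Lpl (0.31 and 1.43) and Fabp4 (0.50 and 2.54) passed in the Post T cohort and not in the On T cohort. Without On T library 2 and library 1 of the Post T controls 1 rose, and without library 2 of the Post T controls 2 fell.

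**Figure D3:**
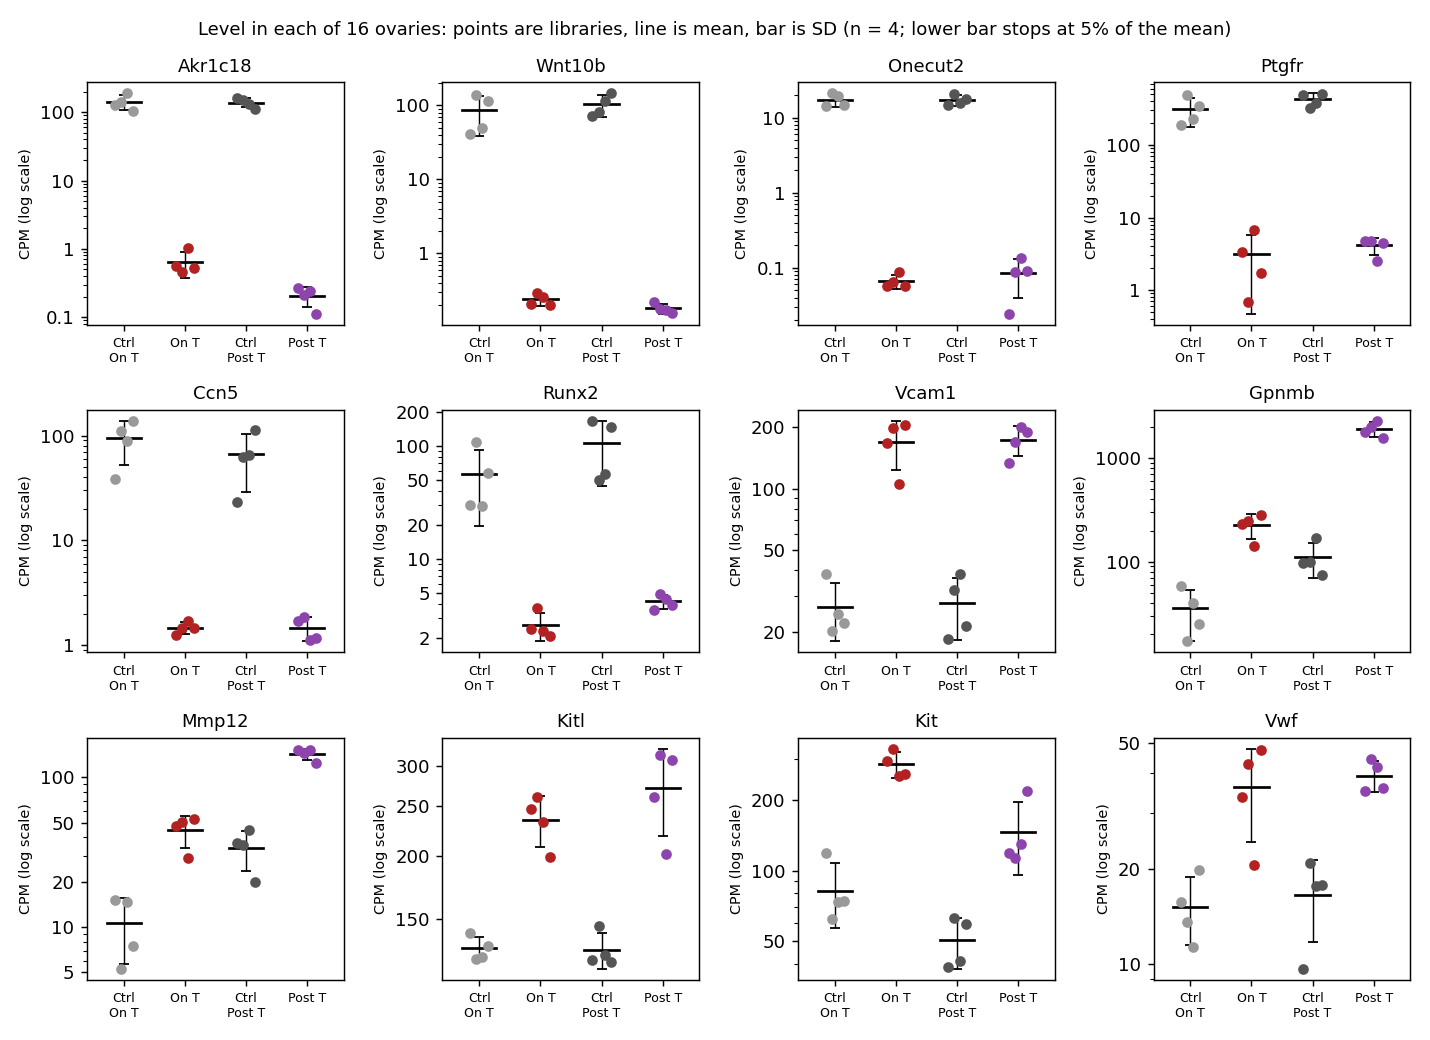
Each panel gives 1 gene in all 16 ovaries as CPM on a logarithmic axis, with points for libraries and the mean and SD of each group of 4. Testosterone libraries lie below the controls of their cohort for the 6 falls (Akr1c18 to Runx2) and above them for Vcam1, Kitl and Vwf, with fold changes nearly equal between the cohorts for Ptgfr, Vcam1 and Vwf and further apart for Akr1c18 (-7.78 and -9.39) and Gpnmb (2.68 and 4.12). The rule that named Akr1c18, Ptgfr, Vcam1 and Gpnmb required that the groups of each cohort not overlap.

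Wnt signalling genes held Wnt10b, the largest fall among the genes named by rule (the 10 largest of those that did not overlap within either cohort and averaged 1 CPM or more). Wnt proteins are secreted signals read by Frizzled receptors, and secreted Frizzled-related proteins bind and block them. Wnt10b (ENSMUSG00000022996, chromosome 15, 98770712 to 98778150 on the minus strand in GRCm38) was at 0.158 to 0.295 CPM with testosterone (median 0.206) and at 40.7 to 146 in controls (median 98.2). It fell by 8.79 (SE 0.34, edgeR adjusted p = 1.42e-11), with -8.49 in the On T cohort and -9.12 in the Post T cohort. Wnt7b (-5.44, SE 0.52), Wnt10a (-3.93, SE 0.39) and Wnt4 (-1.44, SE 0.08) are ligands too, and no library of one treatment overlapped the other in any of these 4. The cohort values were -6.59 and -4.27 for Wnt7b and -4.11 and -3.77 for Wnt10a. Wnt4, which the ovary needs to form as an ovary, had nearly the same fold change in both cohorts, -1.40 and -1.48. Wnt6 was the ligand that rose in both cohorts (0.64 and 0.43).

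Among the receptors, Fzd1 fell by 1.11 (SE 0.14) and Lgr4, a receptor for R-spondins, fell by 0.91 (SE 0.14), while Fzd2 rose by 0.79 (SE 0.11), each in both cohorts. The antagonists went both ways. Sfrp4 was at 2.28 to 33.2 CPM (median 14.4) against 715 to 1545 (median 1112). It fell by 6.52 (SE 0.49, edgeR adjusted p = 1.02e-07), with -7.63 and -5.48 in the cohorts. Sfrp2 fell by 3.72 (SE 0.46), with -4.80 and -2.68. Sfrp5 had the largest rise among the genes named by rule, 5.29 (SE 0.42, edgeR adjusted p = 2.13e-07), from 0 to 0.351 CPM in controls to 0.318 to 19.8 with testosterone. It rose by 3.45 in the On T cohort and 5.88 in the Post T cohort. Its testosterone values split by cohort, at 0.318 to 1.07 CPM in On T and 9.84 to 19.8 in Post T, and the lowest of them lay inside the range of the controls.

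Of the 39 Wnt genes tested, 10 fell and 6 rose (7.52% and 8.55% of all genes tested), with a median of -0.21. In 10 of the 39 the 8 and 8 libraries did not overlap (3.03% of all genes tested). The list's mean log2 CPM was 3.36 to 3.88 with testosterone and 4.09 to 4.59 in controls. Axin2, a common readout of canonical Wnt signalling, had a value of -0.27 and was not called. Lgr5, a Wnt-associated receptor found in the surface epithelium, fell by 1.76 (SE 0.38), from a median of 28.5 CPM in controls to 12.4. It passed in the On T cohort (-2.19) and not in the Post T cohort (-1.33). Its lowest values, 1.77 and 3.12 CPM, were in On T libraries 2 and 4, in which surface epithelium markers were low. Their part in its fall was not tested.

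Collagens and other matrix genes had similar median falls in both cohorts, while single members differed. In the On T cohort 9 fell and 1 rose, in the Post T cohort 8 fell, and in both cohorts 6 fell. Of 30 tested, 16 fell and 1 rose on average. The median was -0.41 on average, -0.41 in the On T cohort and -0.43 in the Post T cohort. The difference of the cohorts was called by edgeR in none (1 had an unadjusted p under 0.05). Tnc, a matrix protein of remodelling tissue, was at 17.5 to 39.7 CPM (median 27.2) against 174 to 445 (median 302). It fell by 3.55 (SE 0.20, edgeR adjusted p = 3.18e-09), with -3.76 and -3.33 in the cohorts, and the groups lay far apart. Col8a1 (-1.48, SE 0.17), Col15a1 (-1.24, SE 0.13) and the basement membrane chains Col4a1 (-0.60, SE 0.11) and Col4a2 fell, and so did the fibrillar Col3a1 and Col1a1 (-0.43, SE 0.14). Dcn, a small proteoglycan, rose by 0.67 (SE 0.17). Col1a1 (-0.63 and -0.23) and Dcn (0.94 and 0.41) passed in the On T cohort and not in the Post T cohort.

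**Figure D4:**
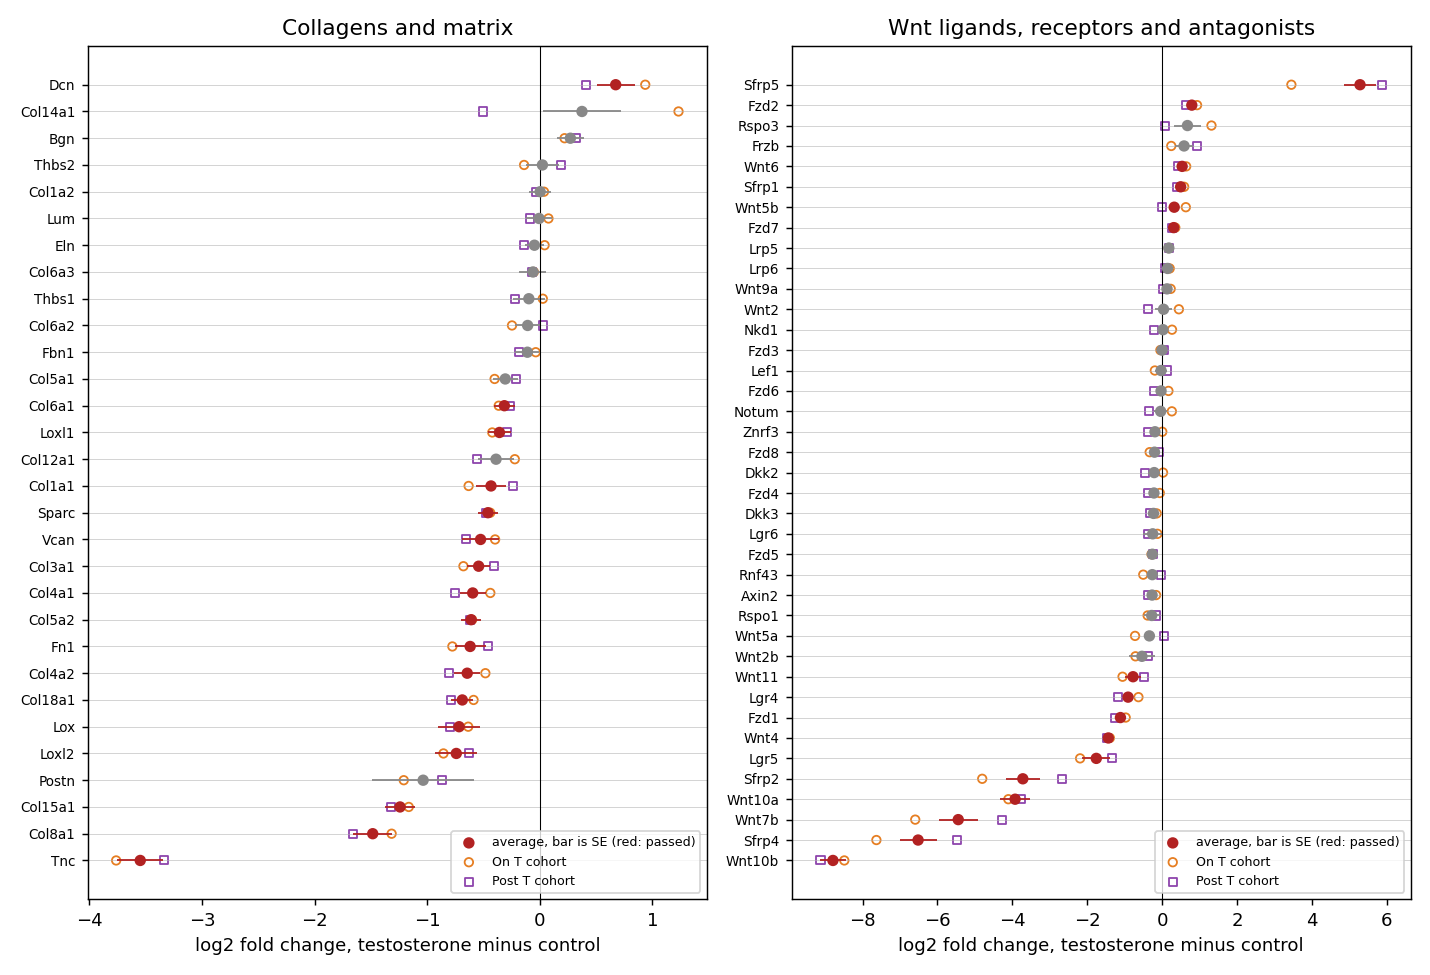
Members of the matrix list (left) and the Wnt list (right) are ordered by their average log2 fold change, with bars for its SE and red for genes that passed, beside the value in the On T cohort (circles) and the Post T cohort (squares). The difference of the cohorts was called in none of the matrix genes, though single values lie apart, as in Col1a1 (-0.63 and -0.23). The Wnt list has a long tail of falls and a single large rise, Sfrp5.

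Proteases and their inhibitors were mixed, with 10 of 25 lower and 3 higher (median -0.20). Timp1, an inhibitor of metalloproteinases, was at 11.3 to 30.5 CPM against 41.5 to 223, without overlap, and fell by 2.63 (SE 0.33, edgeR adjusted p = 2.62e-05), with -3.54 in the On T cohort and -1.74 in the Post T cohort (difference edgeR adjusted p = 0.0274). Mmp12, an elastase of macrophages, had a rise of 2.07 (SE 0.20, edgeR adjusted p = 2.57e-06), with 2.05 and 2.08 in the cohorts. Its testosterone libraries at 29.1 to 152 CPM overlapped the controls at 5.29 to 44.4, since Post T controls were higher than On T controls, and within each cohort the groups did not overlap. Ltbp1, which holds latent transforming growth factor beta in the matrix, was at 51.3 to 137 CPM against 223 to 803 and fell by 2.51 (SE 0.29; -2.33 and -2.70), whereas Ltbp2 rose by 1.02 (SE 0.13; 1.35 and 0.68).

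Ccn5, a secreted protein of the CCN family, was at 1.12 to 1.87 CPM (median 1.44) against 23.0 to 138 (median 77.2). It fell by 5.75 (SE 0.34, edgeR adjusted p = 4.4e-09), with -6.01 and -5.49. Plekhg4, a guanine nucleotide exchange factor, was at 0.272 to 0.819 CPM against 16.7 to 144 and fell by 7.05 (SE 0.38, edgeR adjusted p = 1.35e-09). Ces2a, a carboxylesterase, fell by 7.70, and its SE of 1.13 was wide because the controls ran from 0.648 to 86.3 CPM. Saa2, an acute-phase protein of a family of similar genes whose reads may be shared, had 0 counts in the Post T libraries against 1015 in their controls. This is at least 379-fold lower against a floor of 3 counts over the group. Bpifb6, of the lipid-binding BPI fold family, had 1 count in the Post T libraries against 392 in their controls, a ratio of 439 (exact 95% interval 78.4 to 17398, counting error only), and was not called in the On T cohort (edgeR adjusted p = 0.086). Library 1 of the Post T controls held 242 of the 392 counts, and without it the ratio was 209 (36.9 to 8296) and the average log2 fold change of Bpifb6 -4.94 in place of -5.82.

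Genes switched on around ovulation were lower on average. Of 15 periovulatory genes tested, 8 fell and 2 rose, with a median of -0.80, and the list's mean log2 CPM was 2.24 to 2.83 with testosterone and 3.12 to 4.21 in controls. The rises were Tnfaip3 and Ptx3, and 1 was called when libraries 1, 2 or 3 of the On T controls, On T 1, 2 or 4, libraries 1, 3 or 4 of the Post T controls or Post T 3 were left out singly. In the On T cohort 7 of the list fell (median -0.74), and in the Post T cohort 3 fell and 1 rose (median -0.52). In both cohorts 3 fell. Runx2, which granulosa cells switch on as they luteinise, was at 2.08 to 4.93 CPM (median 3.62) against 29.5 to 166 (median 57.3). It fell by 4.54 (SE 0.34, edgeR adjusted p = 7.57e-08), with -4.43 and -4.65. Cited2, a transcriptional coregulator, was at 124 to 208 CPM against 214 to 289, without overlap, and fell by 0.64 (SE 0.09).

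Immediate early genes, which also respond to tissue handling, were lower on average too, where 13 of 22 fell and 1 rose (median -0.72). In the On T cohort 11 fell (median -1.10), and in the Post T cohort 3 fell and 1 rose (median -0.35). Only 1 fell in both cohorts. The difference of the cohorts was called in 2 of these genes, and 9 had an unadjusted p under 0.05. Their mean log2 CPM was 3.29 to 4.03 with testosterone and 4.03 to 5.07 in controls, and was highest in libraries 2 and 4 of the On T controls and library 4 of the Post T controls. Their part in the periovulatory falls was not tested.

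Of 12 cell cycle inhibitors and D cyclins tested, 4 fell and 2 rose (median -0.08). The rises were Cdkn1c and Cdkn2c (0.25, SE 0.08), and 1 rise was called when libraries 2, 3 or 4 of either control group, On T 2, 3 or 4, or Post T 3 were left out singly. Cdkn2b, an inhibitor of cyclin D kinases (ENSMUSG00000073802, chromosome 4, 89306299 to 89311039, minus strand), was at 1.39 to 2.10 CPM (median 1.54) against 14.8 to 23.8 (median 18.4). It fell by 3.52 (SE 0.13, edgeR adjusted p = 9.29e-12), with -3.53 in the On T cohort and -3.50 in the Post T cohort. Its 8 testosterone values lay within a narrow band far under all controls. Cdkn2a, its neighbour on the chromosome, fell by 1.20 (SE 0.18; -1.26 and -1.13), Cdkn1b fell by 0.97 (SE 0.13; -0.57 and -1.37) and Cdkn1a fell by 2.20 (SE 0.35; -3.14 and -1.29). Cdkn1c rose by 2.32 (SE 0.41), by 0.91 in the On T cohort and 3.69 in the Post T cohort (difference edgeR adjusted p = 0.000508). Of 24 genes of cell division tested, none was called in either direction by edgeR on average or in either cohort. On average 0 had an unadjusted p under 0.05, and DESeq2 and limma also called 0.

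Targets of steroid receptors split by gene. Fkbp5, a chaperone partner induced by several steroid hormones, was at 186 to 271 CPM (median 217) against 438 to 1025 (median 745). It fell by 1.71 (SE 0.17, edgeR adjusted p = 2.57e-06), with -1.43 and -1.99 and without overlap. Sgk1, a kinase of salt and stress responses, was at 30.0 to 97.1 CPM (median 62.2) against 159 to 529 (median 276) and fell by 2.46 (SE 0.21, edgeR adjusted p = 4.33e-07), with -2.83 and -2.09. Klf15, a transcription factor induced by glucocorticoids, rose by 0.67 (SE 0.12; 0.68 and 0.67). Rhox5, a homeobox gene driven by androgen in the testis, rose by 1.13 (SE 0.33) and passed in the Post T cohort and not in the On T cohort. In all, 8 of 18 tested members rose and 4 fell, with a median of 0.24.

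Of 13 steroid and pituitary hormone receptors, 1 rose, Nr3c2, the mineralocorticoid receptor (0.63, SE 0.12; 0.66 and 0.59), and 1 fell, Prlr. Both counts are near the shares of all genes tested, 8.55% higher and 7.52% lower. Without On T library 2, 2 rose. The estrogen receptors Esr1 (-0.08, SE 0.16) and Esr2 (0.32, SE 0.14), the progesterone receptor Pgr (-0.06, SE 0.24), Fshr (-0.10, SE 0.21) and Lhcgr (-0.74, SE 0.40) did not pass, with edgeR adjusted p from 0.136 to 0.91. Each of these had overlapping groups. Nr5a1 and Nr5a2, nuclear receptors that drive steroid enzymes, had values of 0.29 (SE 0.14) and -0.01 (SE 0.17) and did not pass.

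The ligand Kitl and its receptor Kit, through which granulosa cells speak to oocytes and theca cells, both rose. Kitl (ENSMUSG00000019966, chromosome 10, 100015630 to 100100416, plus strand) was at 199 to 315 CPM (median 254) against 124 to 146 (median 127). It rose by 0.95 (SE 0.09, edgeR adjusted p = 1.54e-06), by 0.83 and 1.06, and no library overlapped. Kit was at 114 to 333 CPM (median 237) against 38.7 to 119 (median 62.4) and rose by 1.66 (SE 0.17, edgeR adjusted p = 2.8e-06), by 1.79 and 1.53, and 1 control of the On T cohort (119 CPM) lay above the lowest Post T library (114).

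Kitl was the 1 member called of 20 genes of granulosa cells in growing follicles (median 0.16), and Kit the 1 called of 20 oocyte genes (median 0.11). Over all genes tested 16.1% were called. Without On T library 2, in which the granulosa list was lowest, 4 of the 20 granulosa genes rose. Without library 2 of the Post T controls or Post T library 3, 2 oocyte genes rose. Amh (0.18, SE 0.16), Cyp19a1 (-0.03, SE 0.45), Foxl2 (0.18, SE 0.12) and the oocyte factor Gdf9 (-0.12, SE 0.13) did not pass, with edgeR adjusted p from 0.391 to 0.979. Among theca and stromal genes 4 of 19 rose and 3 fell on average, the falls being Star (-2.53), Mgp (-0.59) and Col1a1 (-0.43). In the On T cohort 5 rose and 3 fell (median 0.45), and in the Post T cohort 3 rose and 1 fell (median -0.10). In both cohorts 1 rose and 1 fell. Tcf21, a transcription factor of stromal cells, was at 64.9 to 108 CPM against 49.7 to 62.1, without overlap (0.54, SE 0.09; 0.68 and 0.40). Insl3, a peptide hormone of theca cells, rose by 1.43 (SE 0.32; 0.99 and 1.89), and passed in the Post T cohort and not in the On T cohort.

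Macrophage and lysosome genes made up many of the largest rises. Gpnmb, a glycoprotein of lysosome-rich macrophages, was at 143 to 2302 CPM (median 921) against 17.2 to 169 (median 66.7). It rose by 3.41 (SE 0.31, edgeR adjusted p = 1.02e-06), by 2.68 in the On T cohort and 4.12 in the Post T cohort. The groups overlapped over both cohorts. They did not overlap within either, which the rule that named Gpnmb required. Mcoln3, a cation channel in the membrane of lysosomes, rose by 3.86 (SE 0.32; 2.91 and 4.42), and Atp6v0d2, a subunit of the proton pump, by 2.50 (SE 0.25). Cxcr1, a chemokine receptor, rose by 4.40 (SE 0.40; 2.59 and 4.78) from a level near the counting floor, 0 to 0.237 CPM in controls against 0.0578 to 5.94. Its On T libraries reached 0.289 CPM at most, so that value rests on few counts.

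The rise of Pira2, an activating receptor of myeloid cells, was 3.24 (SE 0.27), and it was larger in the Post T cohort (2.39 and 3.92, difference edgeR adjusted p = 0.0269). Pira2 belongs to a family of near copies, as do Lyz2 and the histocompatibility genes, so the split of reads among them is uncertain. Tm4sf19, a membrane protein of multinucleated macrophages and osteoclasts, rose by 2.83 (SE 0.28; 2.01 and 3.23). Trem2, a lipid-sensing receptor of macrophages, rose by 1.85 (SE 0.25; 1.19 and 2.48), and Itgax, the CD11c integrin subunit, by 2.28 (SE 0.24; 1.49 and 3.02).

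Of 33 lysosome and multinucleated macrophage genes tested, 19 rose and 1, Lgmn, fell, with a median of 0.57. Of 26 macrophage markers, 13 rose and 2 fell, with a median of 0.58. These averages were unequal between the cohorts. The medians were 0.18 and 0.08 in the On T cohort and 1.09 and 1.08 in the Post T cohort, and the difference was called in 17 of 33 and 11 of 26 members. The macrophage markers summed to 825 to 1539 CPM in On T and 562 to 789 in its controls, and to 4884 to 7468 in Post T and 819 to 1601 in its controls.

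Macrophage genes did not all move together. Adgre1, the F4/80 antigen, was at 9.45 to 23.4 CPM with testosterone and 12.3 to 23.3 in controls (0.26, SE 0.15, edgeR adjusted p = 0.268). Cx3cr1, the fractalkine receptor, fell in both cohorts (-0.84, SE 0.13; -0.83 and -0.86), and Cd163, a scavenger receptor of resident macrophages, fell by 1.52 (SE 0.38). Il34, a ligand of the receptor that keeps macrophages alive, was at 3.44 to 6.59 CPM against 7.93 to 12.6, without overlap. It fell by 1.13 (SE 0.14, edgeR adjusted p = 2.84e-05), with -1.10 and -1.15. Csf1, the other ligand of that receptor, rose by 0.57 (SE 0.15; 0.29 and 0.85).

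Promoters of some of these genes hold letters of known regulatory elements, and 5 from genes called on average are shown as examples of 4 of the 5 elements searched. They were chosen after the matches were seen. RefSeq promoters (GRCm38.p6) were searched from 250 bases before to 50 bases after each start, on both strands, and 100 bases that end before the start are printed with the match in capitals. The letters searched were TCACGTGA for the element of lysosomal genes (CLEAR box), AGNACA and TGTNCT with any 3 bases between them for glucocorticoid and related steroid receptors, TCACNCCAC for sterol regulation, AGAGGAAGT for the myeloid factor PU.1 and NCAAGGNCA for NR5A receptors.
Ctsd: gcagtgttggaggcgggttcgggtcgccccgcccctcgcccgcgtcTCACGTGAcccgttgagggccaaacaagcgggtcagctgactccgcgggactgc
Gla: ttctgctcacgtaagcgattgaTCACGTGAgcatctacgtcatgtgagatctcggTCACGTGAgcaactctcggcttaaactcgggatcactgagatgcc
Sgk1: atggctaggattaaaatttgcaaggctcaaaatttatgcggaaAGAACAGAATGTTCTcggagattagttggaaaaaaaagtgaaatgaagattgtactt
Hmgcs1: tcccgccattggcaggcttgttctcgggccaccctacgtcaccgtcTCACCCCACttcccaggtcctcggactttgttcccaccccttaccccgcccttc
Mmp12: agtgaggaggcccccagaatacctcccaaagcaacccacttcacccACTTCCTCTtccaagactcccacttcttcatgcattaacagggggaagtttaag

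The stretches lie at chr7:142387873-142387972 (Ctsd, minus strand), chrX:134601156-134601255 (Gla, minus strand), chr10:21993658-21993757 (Sgk1, plus strand), chr13:119690168-119690267 (Hmgcs1, plus strand) and chr9:7344263-7344362 (Mmp12, plus strand). All are upstream of an annotated start and outside the gene's exons from that start. Sgk1 has 6 starts in the table and Mmp12 2, and the match stood at 1 of them in each. Mmp12 carries its match on the other strand. Ctsd, the aspartic protease of lysosomes, rose by 1.32 (SE 0.22; 0.60 and 2.04), and Gla, a lysosomal galactosidase, by 0.90 (SE 0.17; 0.28 and 1.51).

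The CLEAR letters stood in 4 of 37 promoters of the lysosome list (10.8%), in 1.61% of promoters of the genes tested and in 0.974% of the 32851 promoters in the table. The other 2 genes were Atp6v1a (0.35, SE 0.11), which was called, and Mcoln1 (0.16, SE 0.07), which was not. The steroid receptor letters stood in 0.0639% of all promoters, and in 1 of 27 of the steroid target list. Those of sterol regulation stood in 1.24% of all promoters, those of PU.1 in 1.00% and those of NR5A in 6.68%. In the lists of the genes concerned, the sterol letters stood in 1 of 22 promoters of cholesterol synthesis, those of PU.1 in 0 of 20 of the macrophage markers and 1 of 37 of the lysosome list, and those of NR5A in 0 of 21 of the luteal markers. Other lists held them too, with sterol letters in 2 of 37 of the lysosome list and those of NR5A in 3 of 20 of the macrophage markers. In promoters of genes lower and higher in both cohorts, the CLEAR letters stood in 0.913% and 1.82%, and the sterol letters in 2.51% and 1.52%. Those of PU.1 stood in 0.457% and 2.12%, of NR5A in 5.71% and 9.39%, and of steroid receptors in 0.228% and 0.303%. None of the 5 sets of letters was found in the promoters of Akr1c18, Wnt10b, Ptgfr, Sfrp5, Mcoln3 and Pira2 that the table holds, which says only that these letters are not in those windows. A match is a description of the letters and not a measured site.

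Vcam1, an adhesion molecule that holds leukocytes to vessel walls and stroma, had the same effect in both cohorts. Vcam1 (ENSMUSG00000027962, chromosome 3, 116109949 to 116129688, minus strand) was at 106 to 204 CPM (median 179) against 18.5 to 38.6 (median 23.4). It rose by 2.66 (SE 0.18, edgeR adjusted p = 3.13e-08), by 2.67 in the On T cohort and 2.65 in the Post T cohort (difference edgeR adjusted p = 0.985). All 8 testosterone libraries were above all controls. Vwf, the clotting factor of endothelial cells, was at 20.6 to 47.3 CPM against 9.66 to 20.9, where the lowest On T library lay under the highest Post T control and each cohort by itself did not overlap, and it rose by 1.25 in each cohort (SE 0.17 on average). Of 22 genes of endothelium and vessel growth 7 rose on average, with a median of 0.24. In the On T cohort 4 rose (median 0.35), in the Post T cohort 2 (median 0.06) and in both 1. The difference of the cohorts was called by edgeR in 0 of the 22, and 2 had an unadjusted p under 0.05. Angpt2, which loosens vessels, was at 34.0 to 73.6 CPM against 27.1 to 33.8, without overlap (0.60, SE 0.13).

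Lymphocyte markers had medians of 0.25 in the On T cohort and 0.94 in the Post T cohort, and the difference of the cohorts was called in 3 of the 23 tested. Of the 23, 12 rose on average, with a median of 0.59, and the count was 5 to 7 when library 3 of the On T controls, On T library 1, any 1 of the Post T controls, or Post T library 1 or 3 was left out. Il7r, the interleukin 7 receptor, was at 4.37 to 57.8 CPM against 1.59 to 8.44 and rose by 2.31 (SE 0.27; 1.53 and 3.01, difference edgeR adjusted p = 0.0345). Cd4, the coreceptor of helper T cells that some macrophages also carry, rose by 2.06 (SE 0.26; 1.59 and 2.48). These 2 were the members called in both cohorts. The markers summed to 35.8 to 53.8 CPM in On T and 33.1 to 42.9 in its controls, and to 128 to 174 in Post T and 51.2 to 57.7 in its controls.

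Of 25 cytokines and chemokines, 12 rose and 2 fell, with a median of 0.80. The falls were Il34 and Il18, and 1 was called when libraries 1, 3 or 4 of the On T controls, any 1 On T library or library 4 of the Post T controls were left out. In the On T cohort 1 member rose and 5 fell (median 0.06), and in the Post T cohort 17 rose and 1 fell (median 1.26). The member that rose in both cohorts was Cxcl14, a chemokine of epithelia and stroma (0.85, SE 0.14, with 1.04 and 0.67). Others rested on the Post T cohort, such as Il1a (2.11, SE 0.37; 0.77 and 3.15). Of 20 interferon-stimulated genes 4 fell (median -0.09), and 2 fell when any 1 of 6 libraries was left out: On T 2, 3 or 4, libraries 3 or 4 of its controls, or Post T 4. The cohorts went apart in this list. In the On T cohort 6 fell and 0 rose (median -0.47), and in the Post T cohort 0 fell and 2 rose (median 0.14). The difference of the cohorts was called in 2 of the 20, and 13 had an unadjusted p under 0.05.

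**Figure D5:**
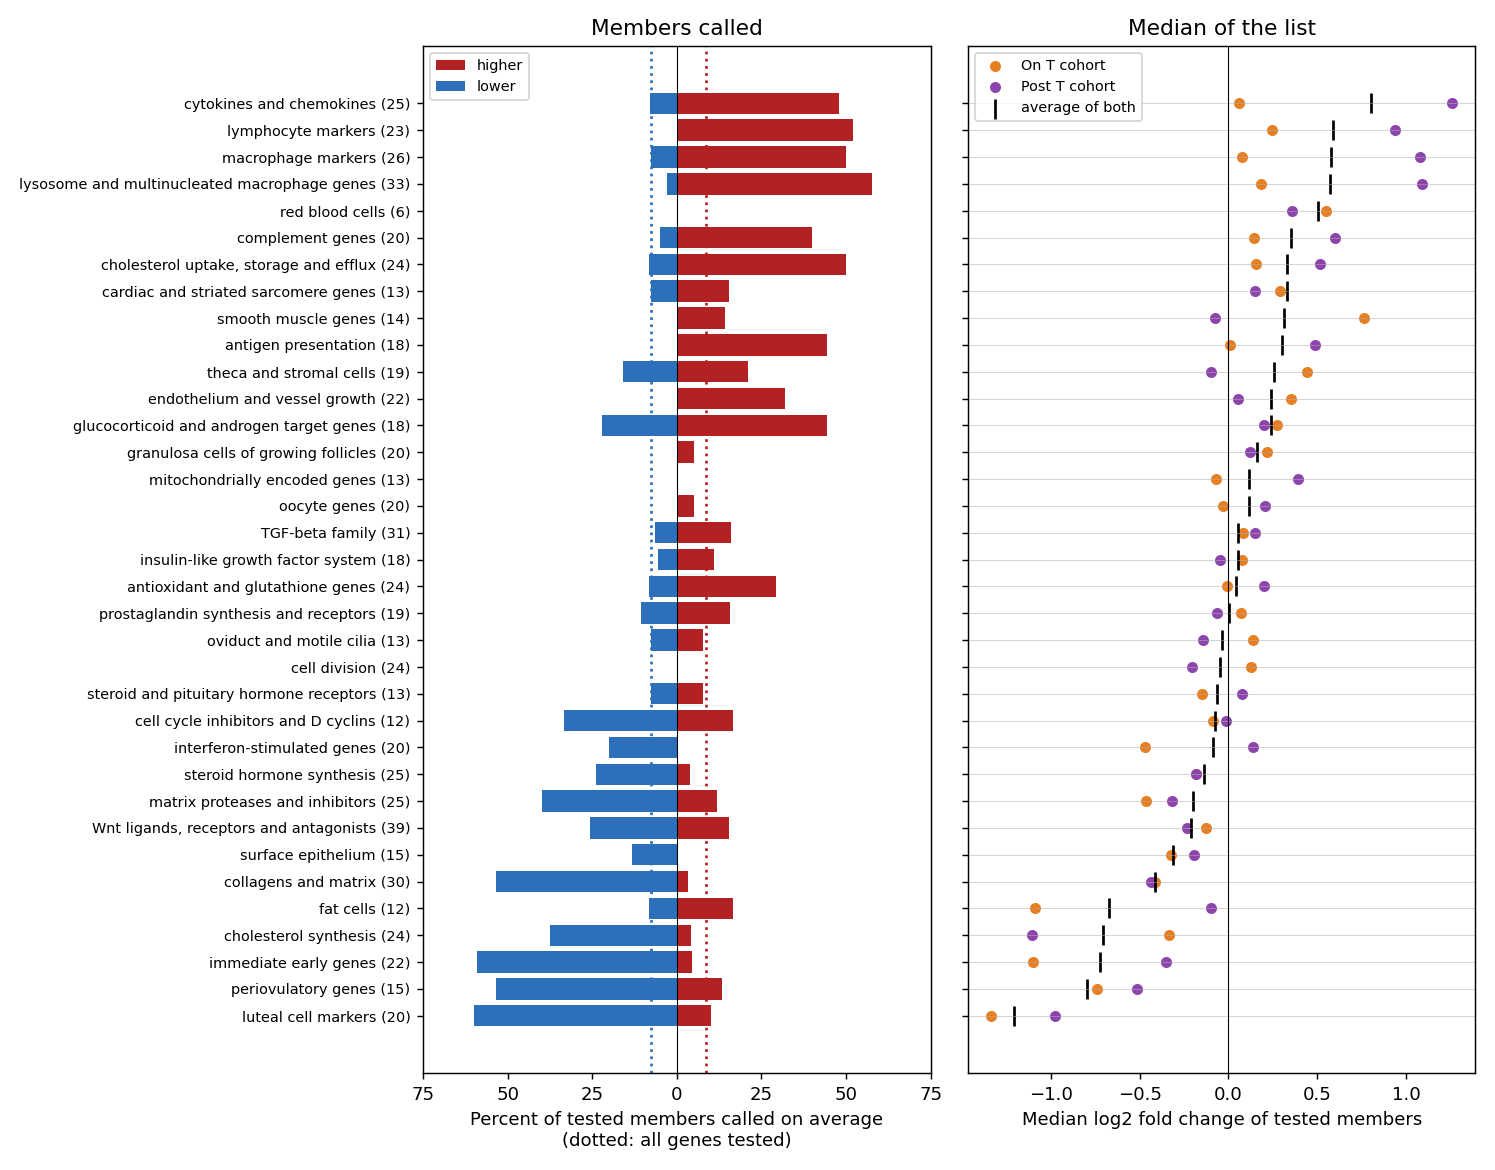
For each of 35 gene lists, with the number of members tested in parentheses, the left panel gives the percent of members called on average, higher to the right and lower to the left, with dotted lines for all genes tested. The right panel gives the list's median log2 fold change on average and in each cohort, and it shows luteal, periovulatory and matrix genes low in both cohorts, and macrophage, lysosome and cytokine genes high mainly in the Post T cohort.

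Sarcomere genes gave an average that hides unequal parts. Of 13 tested, 2 rose and 1 fell. Myh6, the alpha heavy chain of heart myosin, was at 0.981 to 103 CPM against 0.375 to 1.27 and rose by 4.37 (SE 0.66), by 5.97 in the On T cohort and 1.81 in the Post T cohort (difference edgeR adjusted p = 0.00158). Myh7, its near copy and neighbour, rose by 2.13 (SE 0.35; 3.22 and 0.82), and reads may be split between them. Actc1, the member that fell (-1.02), lost its call when any 1 of 6 libraries was left out: library 2 or 3 of the On T controls, On T 1, library 2 of the Post T controls, or Post T 1 or 4.

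Some genes passed only when both cohorts were joined. By the rule these were, among the rises, Tfdp2, the partner of E2F factors (0.30, SE 0.07), Ntm, an adhesion protein of neurons (0.97, SE 0.22), Snai2, a transcriptional repressor of cell migration (0.46, SE 0.11), and the actin regulators Wasf3 (0.56, SE 0.13) and Arhgef6 (0.40, SE 0.09). The falls were Ackr4, a scavenging chemokine receptor (-1.37, SE 0.31), Tspan5, a tetraspanin (-0.41, SE 0.09), Auh, an enzyme of leucine breakdown (-0.27, SE 0.06), March6, a ubiquitin ligase of the endoplasmic reticulum (-0.37, SE 0.09), and Enah, an actin regulator (-0.45, SE 0.10). Their edgeR adjusted p lay between 0.00492 and 0.00728 on average and between 0.051 and 0.116 in the cohorts.

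The groups lay close together in these genes. March6 was at 117 to 168 CPM with testosterone and 175 to 233 in controls, without overlap. Snai2 was at 18.4 to 28.0 CPM against 11.8 to 17.8, also without overlap. In the other 8 the ranges of the 8 and 8 libraries overlapped, as in Tfdp2, at 96.9 to 123 CPM against 74.6 to 105. On log2(TPM + 1) with limma, Tfdp2, Wasf3, Arhgef6 and Ackr4 did not pass (limma adjusted p = 0.12, 0.0679, 0.0505 and 0.0548).

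In 21 genes (0.112% of genes tested) both cohorts passed in opposite directions, so that no common effect exists and none of the 21 was called on average. Of these, 18 were lower in On T and higher in Post T. Cd44, a hyaluronan receptor, had a log2 fold change of -0.82 in the On T cohort and 1.54 in the Post T cohort (average 0.37, edgeR adjusted p = 0.536). Olfm2, a secreted olfactomedin (-0.83 and 1.70), Rnf128, a ubiquitin ligase (-0.69 and 0.92), and Anxa1, a phospholipid-binding protein that restrains inflammation (-1.13 and 0.47), went the same way. Among the other 3 were Gabrb1, a subunit of the GABA receptor (0.82 and -1.26), and Tbc1d4, which controls glucose transporter traffic (0.51 and -0.48). The difference was called in each of these 6, with edgeR adjusted p from 0.000508 to 0.0145.

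The remaining named rises were smaller in level. Awat1, a wax ester synthase, was at 0.197 to 5.47 CPM against 0 to 0.281 (3.96, SE 0.34; 2.75 and 4.34). Trim29, a tripartite motif protein, was at 0.318 to 6.28 CPM against 0.102 to 0.468 (2.80, SE 0.35; 1.74 and 3.62). Clca3a2, a regulator of chloride channels, was at 0.434 to 4.49 CPM against 0.0984 to 0.324, without overlap (2.98, SE 0.41; 1.80 and 4.22, difference edgeR adjusted p = 0.0307).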

How the data were processed

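RNA of 16 ovaries was measured, 4 per group, with groups taken from the labels. The deposited expected counts per gene were made by the authors with RSEM, and the deposited TPM values (transcript abundance scaled for length and depth) come from the same step, per the file headers. Per the submitters' processing notes the tools were STAR 2.7.8a, RSEM 1.3.3, FastQC 0.11.8 and cutadapt 2.3, on GRCm38. Annotation release and use of strand in counting are not given in the sources used here, so overlapping and antisense genes may share reads. Deposited FPKM values were not used.

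Expected counts were rounded to whole numbers and tested with edgeR 4.0.16 in R 4.3.3 (TMM scaling, filterByExpr with a minimum count of 10, quasi-likelihood F test, Benjamini-Hochberg adjustment at 0.05). The average effect came from a fit of treatment plus cohort. It is 1 coefficient for both cohorts and need not be the mean of the cohort values, as in Sfrp5 (5.29, with 3.45 and 5.88). Cohort effects and their difference came from a fit with 4 group means. The SE was derived from the log2 fold change and the F statistic of its test, and CPM were scaled by TMM. Mean log2 CPM of a list used a prior count of 2. Replicates are separate mice. Library totals of 26598055 to 52659637 put the floor of 3 counts at 0.0571 to 0.117 CPM, which covers counting error only.

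Named genes are the 10 largest rises and falls among called genes without overlap within either cohort, averaging 1 CPM or more, and neither predicted genes nor pseudogenes. The rule added 5 per direction called only when the cohorts are joined, up to 4 per kind called in opposite directions, up to 3 per list by smallest p, and 16 fixed genes. Other list members named were chosen after their values were seen. A few genes that the rules name are not reported here. Members, lists and rules were chosen with earlier results of these data known. The 35 lists hold 696 genes, of which 660 were tested, and 52 are in 2 or more lists.

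Other settings tried were size factors by median of ratios, no filter or 1 CPM in 4 libraries, DESeq2 1.42.0, limma 3.58.1 on log2(TPM + 1), a replicate block, no cohort block, 4 group means, age as covariate, each cohort alone and each library left out in turn. Gene positions came from GENCODE on GRCm38, which held 55154 of 55426 identifiers. The fit was tested on simulated data.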

Additional observations from a re-analysis of the deposited data

Results flagged for a closer look

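Of 204 groups of 4 libraries checked over 51 named genes, 14 held 1 library far from the other 3. Chance flags about 1 in 20 groups if values are normally spread, which does not hold for genes with few counts. On T library 2 was such a library in 4 of them. It had 3.18 CPM of Ntm (others 2.04 to 2.22), 35.6 of Wasf3 (18.1 to 20.1), 37.9 of Tspan5 (27.1 to 28.4) and 3.67 of Gabrb1 (1.88 to 2.04). On T library 3 had 1.04 CPM of Akr1c18 (0.459 to 0.552) and 1100 of Cyp17a1 (47.6 to 122). On T library 4 had 0.231 CPM of Ces2a (0.0952 to 0.116).

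Post T library 1 had 0.0246 CPM of Bpifb6, where the others had 0, and 308 of Foxl2 (201 to 219). The Bpifb6 value is 1 count, and beside equal values in the others any count is flagged. Among the On T controls, library 1 had 39.6 CPM of Auh (37.6 to 37.9), library 2 had 317 of Nr5a1 (450 to 457) and library 3 had 160 of Esr2 (106 to 115). Among the Post T controls, library 3 had 23.3 CPM of Adgre1 (13.1 to 13.9) and library 4 had 233 of March6 (178 to 185).

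Among the same 51 genes, which leave out those named only as list members, the effects of the cohorts differed by the test of the difference in 8. The Post T effect minus the On T effect, on the log2 scale, was 2.42 for Clca3a2, 1.53 for Pira2, 2.52 for Olfm2, 2.35 for Cd44, 1.6 for Rnf128 and 1.6 for Anxa1. It was -2.08 for Gabrb1 and -0.99 for Tbc1d4. The last 6 are the genes chosen because the cohorts went opposite ways, so their difference is a description.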

How the results depend on the processing

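The number of genes changed on average lay between 2527 (without library 2 of the On T controls) and 3126 (without On T library 3) with single libraries left out, 1349 to 1816 higher and 1077 to 1498 lower. The On T count was 1081 to 2071, lowest without libraries 4 (1081) and 2 (1094) of the On T controls, the Post T count 1753 to 2568, the difference count 453 to 735, and the count in both cohorts 549 to 799. Fitted alone, the On T cohort called 1335 genes (604 higher, 731 lower) and the Post T cohort 2015 (761 lower). DESeq2 called 3612 genes on average and 999 differences. Limma called 2415 on average, 1130 in the On T cohort and 468 in both (172 higher). Other fits called 2673 to 3365 on average. With the replicate block 2872 genes were called (1505 higher, 1367 lower), 2733 of them shared with the 3026. Replicate numbers did not pair the libraries, since deviations of same-numbered libraries correlated at -0.0194 to 0.233, above 0.1 in 3 of 8 pairs, and 5 of 16 libraries correlated best with their own number.

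Of 104 named genes that passed, none reversed in 28 settings, and 41 lost the call in at least 1. Values that changed sign belonged to genes that had not passed. With the On T cohort alone they were Tyms 0.01, Cenpe 0.03, mt-Co1 -0.06, Esr1 0.17, Cyp17a1 -0.14 and Nr5a2 0.17. With the Post T cohort alone they were Sohlh1 -0.23, Pgr 0.02, Fshr 0.03, Amh -0.11, Cyp19a1 0.31 and Gdf9 0.08. Without On T library 2 and library 1 of the Post T controls, a setting added after seeing the data, they were Tyms 0.03, Fshr 0.05, Cyp19a1 0.10 and Nr5a2 0.17. Limma gave -0.17 for Cyp17a1, and no filter, the 1 CPM filter and no cohort block each gave 0 for Nr5a2. With single libraries left out, Esr1 lay between -0.18 and 0.03, Pgr -0.18 and 0.04, Fshr -0.19 and 0.04, Cyp19a1 -0.26 and 0.17, and Nr5a2 -0.08 and 0.09. The cause was not tested. Depth limits genes near the floor of 3 counts, such as Cxcr1, Saa2 and Bpifb6.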

Other observations

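Genes of glutathione and oxidant handling split by member. Of 24 tested, 7 rose and 2 fell on average (median 0.04), where 8.55% of all genes tested were higher and 7.52% lower. In the On T cohort 2 rose and 2 fell, and in the Post T cohort 7 rose and 1 fell. Gsta2, a glutathione transferase with close copies whose reads may be shared, was at 16.5 to 85.4 CPM against 3.09 to 11.3 in controls, and rose by 2.60. Gstt1 rose by 0.70, and Gpx3, a secreted glutathione peroxidase, fell by 1.11. These 3 passed in both cohorts, with no overlap of the 8 and 8 libraries. The other fall on average was Gsta1, and 1 of both falls was called when libraries 3 or 4 of the On T controls, On T 2, 3 or 4, libraries 2 or 3 of the Post T controls, or Post T 2 or 3 were left out singly.

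Of 18 antigen presentation genes 8 rose (median 0.30), and H2-D1, a class I histocompatibility gene with close copies, was the member called in both cohorts. Without library 4 of the Post T controls 4 rose, and without library 3 of the same group, Post T 1 or Post T 3, 5 rose. In the On T cohort 1 antigen presentation gene rose and 1 fell (median 0.01), and in the Post T cohort 10 rose (median 0.49). The difference was called in 5 of the 18. Of 20 complement genes 8 rose and 1, Cfi, fell on average, and no fall was called when any 1 of 13 of the 16 libraries was left out (all but libraries 1 of the On T controls, On T 2 and library 2 of the Post T controls). In the On T cohort 2 complement genes rose (median 0.15), and in the Post T cohort 9 rose (median 0.60), with the difference called in 4. Of 19 prostaglandin genes 3 rose and 2 fell, with 1 fall called without library 4 of the On T controls. Besides Ptgfr, Hpgds, the prostaglandin D synthase of blood cells, passed in both cohorts, with a larger Post T value by the test of the difference. Neither the 13 mitochondrially encoded genes nor the 6 red blood cell genes tested held a call by edgeR on average, and 0 of either list had an unadjusted p under 0.05 or were called by DESeq2 or limma. In 9 of the 13 mitochondrial genes the difference of the cohorts had an unadjusted p under 0.05.

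Genes on the X chromosome were called higher more often than those of any autosome: 92 of 689 tested (13.4%), against 5.62% to 10.7% over the autosomes. In the On T cohort 52 were higher (7.55%, against 4.24% of all genes tested) and in the Post T cohort 61 (8.85%, against 7.49%). In both cohorts 19 were higher (2.76%, against 1.76%). On average 31 genes of the X chromosome were lower (4.50%), against 5.79% to 10.2% over the autosomes. The share of rises was noticed in the data, genes of 1 chromosome are not independent, and it was given no test.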
